A study of Homo sapiens with 32 samples.

Results

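The JUN and FOS genes encode the core subunits of AP-1, and the set described here is JUN, JUNB, JUND, FOS, FOSB, FOSL1 and FOSL2. The members were chosen by name, as JUN and its closest relatives, and all 7 were found among the 58721 genes of the expression tables. The cells were HEK293T, a human embryonic kidney line that carries SV40 large T antigen, and chronic stress of the endoplasmic reticulum was brought about with thapsigargin (Tg), an inhibitor of the calcium pump of that compartment. RNA-Seq and m6A-eCLIP, a crosslinking assay that lists positions of N6-methyladenosine, were run on cells with wild-type (WT) eIF3d or with the phosphomimetic form DD, which carries S528D and S529D. Subunit-Seq sequenced RNA bound by eIF3d in cells with HA-eIF3d-TEV, a tagged form with a protease site, beside matched input RNA.

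The RNA-Seq groups were DD cells given 600 nM Tg for 16 h, DD cells given an equal volume of DMSO, WT cells given Tg and WT cells given DMSO, with 2 libraries each. The Subunit-Seq groups were IP and input of Tg-treated cells and IP and input of DMSO-treated cells, with 2 libraries each, and no DD cells. The m6A-eCLIP data held 1 list of sites for each genotype and treatment. Whether the WT and DD cells were clones or pools, and whether both replicates came from separate cultures, is not given in the sources used here, so the p-values measure the spread between these libraries, which may be technical.

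AP-1 is a dimer of basic leucine zipper proteins that binds DNA. JUN proteins pair with each other or with FOS proteins, whereas FOS proteins need a JUN partner, and the makeup of the dimer sets its activity. FOS, FOSB, JUN and JUNB are immediate-early genes with short-lived mRNAs, JUND is expressed more steadily, and JUN mRNA is known as an mRNA whose cap can be bound by eIF3d, the subunit of initiation factor eIF3 with a cap-binding fold.

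The start of JUN is shown because a listed m6A position falls there and because the 5' end is where eIF3d meets the cap. The sequence is from RefSeq (GRCh38.p14), chr1:58784023-58784047 on the minus strand, printed in the direction of the RNA, and the capital marks the listed base, base 5 from the RefSeq start.
JUN start: gctcAgagttgcactgagtgtggct
The listed base is an A followed by a G.

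The promoters of JUN and JUND are shown because these 2 members carried most of the RNA of the set, with those of JUNB and FOS for contrast. Each is the 250 bases before the RefSeq start (GRCh38.p14), read along the gene, with matches to the searched motifs in capitals. They are chr1:58784048-58784297 on the minus strand for JUN, chr19:18281623-18281872 on the minus strand for JUND, chr19:12791236-12791485 on the plus strand for JUNB and chr14:75278578-75278827 on the plus strand for FOS.
JUN: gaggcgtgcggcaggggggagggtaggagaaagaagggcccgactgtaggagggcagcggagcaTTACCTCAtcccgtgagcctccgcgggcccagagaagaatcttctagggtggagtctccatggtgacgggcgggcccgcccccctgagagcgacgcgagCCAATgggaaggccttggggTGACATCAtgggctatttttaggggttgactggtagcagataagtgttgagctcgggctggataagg
JUND: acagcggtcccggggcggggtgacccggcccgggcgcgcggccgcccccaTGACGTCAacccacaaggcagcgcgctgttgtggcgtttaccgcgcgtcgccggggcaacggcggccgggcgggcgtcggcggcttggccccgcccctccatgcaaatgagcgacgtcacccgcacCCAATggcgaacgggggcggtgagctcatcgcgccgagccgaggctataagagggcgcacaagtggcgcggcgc
JUNB: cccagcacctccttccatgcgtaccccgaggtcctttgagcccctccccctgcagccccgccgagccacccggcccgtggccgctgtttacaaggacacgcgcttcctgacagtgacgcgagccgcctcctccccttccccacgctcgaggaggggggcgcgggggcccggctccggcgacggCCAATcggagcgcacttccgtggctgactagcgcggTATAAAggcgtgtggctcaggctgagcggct
FOS: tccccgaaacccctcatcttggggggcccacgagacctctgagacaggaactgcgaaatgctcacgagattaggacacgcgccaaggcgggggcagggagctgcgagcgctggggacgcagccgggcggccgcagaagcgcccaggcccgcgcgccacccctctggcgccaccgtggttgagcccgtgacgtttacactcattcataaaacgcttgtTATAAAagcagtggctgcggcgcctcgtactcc
The motifs searched on both strands, from 250 bases before to 50 bases after the start, were the AP-1 site TGANTCA, the cyclic AMP response element TGACGTCA, the AP-1-like sequences TGACATCA and TTACCTCA known from the JUN promoter, the TATA box TATAAA and the CCAAT box CCAAT. None of these letter strings contains another. JUN held TTACCTCA, CCAAT and TGACATCA and no TATAAA, JUND held TGACGTCA and CCAAT, JUNB held CCAAT and TATAAA, and FOS held TATAAA alone. FOSB also held TATAAA, and FOSL2 held TGANTCA just after its start. Among 27305 promoters of the same length, TGANTCA was found in 7.76%, TGACGTCA in 1.98%, TGACATCA in 2.71%, TTACCTCA in 0.718%, TATAAA in 11.95% and CCAAT in 35.7%. Promoters were matched for 6 of the 7 members, all but FOSL1, and a match of letters is a description of the window only.

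Depth was 4508483 to 10163214 reads per library in RNA-Seq and 5102852 to 16860637 in Subunit-Seq, and values are RPKM, read numbers divided by gene length and by library size. EIF3D itself, the altered gene, stood at 64.3 and 29.2 RPKM in DD Tg, 37.5 and 76.6 in DD DMSO, 44.2 and 91.2 in WT Tg and 68.3 and 69.6 in WT DMSO. These values do not check the substitutions, because RPKM does not tell reads with and without them apart. Of 8 HEK293 markers, 6 averaged at least 1 RPKM in each assay, while the leukocyte, hepatocyte and endothelial lists had no marker at that level. Of 4 fibroblast markers, 2 reached it in RNA-Seq and 1 in Subunit-Seq, with a summed level of 0.0904 to 29.2 RPKM in RNA-Seq and 0.104 to 56.6 in Subunit-Seq libraries, whose part in the results was not tested. DD Tg replicate 2, with 57.3% of reads on the mitochondrial rRNA genes, and Input DMSO replicate 2, with 6395 genes at 1 RPKM or more against 8503 to 11452 in the other inputs, stood apart from their groups. These are bulk data, in which less RNA per cell and fewer cells with the RNA cannot be told apart.

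JUN and JUND dominated the set in RNA-Seq. Together they made up 91.5% to 97.7% of its summed RPKM in each library. JUN, the founding subunit, had 12.3 and 25.2 RPKM in DD Tg, 12.3 and 13.9 in DD DMSO, 20.1 and 40.1 in WT Tg and 14.5 and 17.7 in WT DMSO. Both WT Tg libraries lay above both WT DMSO libraries, and DD DMSO lay below both WT groups, whereas DD Tg overlapped every other group. The share of all genes with such splits between groups was not counted, here or for JUNB below, so they do not set a gene apart. JUND had 17.8 and 31.1 RPKM in DD Tg, 15.2 and 37.9 in DD DMSO, 14.8 and 83.0 in WT Tg and 10.5 and 38.7 in WT DMSO. From lowest to highest library JUND ranged 7.89-fold, against 3.26-fold for JUN. JUND split by replicate number and not by group, with every replicate 2 library above every replicate 1 library, and JUN was also higher in replicate 2 within each group.

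JUNB, which often acts against JUN at shared targets, was far lower, with 1.51 and 0.917 RPKM in DD Tg, 1.57 and 2.48 in DD DMSO, 1.07 and 3.38 in WT Tg and 1.44 and 2.80 in WT DMSO. These values rest on 11 to 48 reads, and both DD Tg libraries lay just below both DD DMSO libraries while all other groups overlapped. JUNB shares its locus with HOOK2 on the opposite strand and FOSL2 with FOSL2-AS1, and the RNA-Seq kit is not described as keeping strand, so reads of those pairs cannot be told apart.

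The FOS genes were near the limit of detection. FOS, the classic serum-induced partner of JUN, had 0.182 and 0 RPKM in DD Tg, 0.443 and 0.127 in DD DMSO, 0.453 and 0.198 in WT Tg and 0.171 and 0.137 in WT DMSO, from 0 to 12 reads. FOSB, its close relative, had 0 to 4 reads per library and at most 0.109 RPKM. FOSL2, a FOS-related subunit, had 0.151 and 0.148 RPKM in DD Tg, 0.346 and 0.172 in DD DMSO, 0.444 and 0.394 in WT Tg and 0.424 and 0.217 in WT DMSO. For FOS the WT Tg libraries lay above those of WT DMSO and DD Tg, for FOSB the WT Tg libraries lay below both DD groups, and for FOSL2 the DD Tg libraries lay below all others. These gaps rest on 0 to 26 reads per gene and library. The share of all genes with such gaps was not counted, so they do not set these members apart.

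FOSL1, the FOS-related subunit known from RAS-transformed cells, had 0.104 and 0.161 RPKM in DD Tg, 0.0690 and 0.163 in DD DMSO, 0.454 and 0.679 in WT Tg and 0.293 and 0.705 in WT DMSO. All 4 DD libraries were below all 4 WT libraries, with 8 reads in all in DD cells and 27 in WT cells. FOSL1 was the 1 member of 7 with this split, which 181 of 30821 genes with any read showed (0.587%). At 1 to 10 reads per library it was under the filter for the test, and it was picked out after its values were seen.

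Ranked by median over the 8 RNA-Seq libraries, JUND (24.5 RPKM) and JUN (16.1) came first, and their ranges overlapped, with JUND higher in 6 of 8 libraries. JUNB (1.54) lay below both in 8 of 8 libraries, and FOSL2 (0.281) below JUNB in 8 of 8, without overlap of ranges between JUN, JUNB and FOSL2. FOSL1 (0.228), FOS (0.176) and FOSB (0.0362) followed, and the ranges of neighbours among FOSL2, FOSL1, FOS and FOSB overlapped. The ratio of JUN to JUND RPKM ranged from 0.368 to 1.38. In replicates 1 and 2 it was 0.693 and 0.809 in DD Tg, 0.810 and 0.368 in DD DMSO, 1.36 and 0.483 in WT Tg and 1.38 and 0.457 in WT DMSO, so it was lower in replicate 2 in every group but DD Tg.

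**Figure D1:**
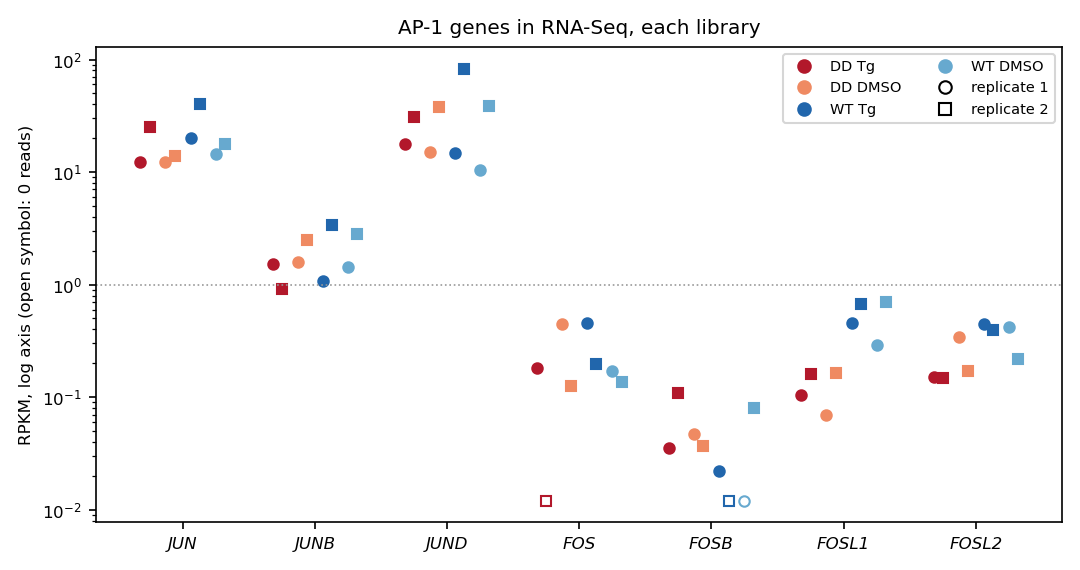
RPKM (log axis) of the 7 AP-1 genes in each of the 8 RNA-Seq libraries, coloured by group, with circles for replicate 1, squares for replicate 2, open symbols for 0 reads and a dotted line at 1 RPKM. JUN and JUND lie above 10 RPKM in every library, JUNB near the dotted line, and FOS, FOSB, FOSL1 and FOSL2 below 1 RPKM throughout.

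The RNA-Seq comparisons address whether chronic stress changes the level of each mRNA and whether the response differs with phosphomimetic eIF3d. No AP-1 gene was called by the test. Only JUN, JUNB and JUND had a mean of at least 1 RPKM and were tested, and limma on log2(RPKM + 1) called 0 of these 3 at adjusted p under 0.05 in any of the 5 contrasts. Across all 9637 genes tested it called 0, that is 0% in each contrast, with 25 genes at unadjusted p under 0.05 for Tg in DD cells, 24 for Tg in WT cells, 82 for DD against WT in Tg, 68 in DMSO and 21 for the interaction. The count model voom on reads recovered from the RPKM steps also called 0, with 5, 6, 45, 26 and 5 genes at unadjusted p under 0.05 in the same order. Both fits left out the replicate number, so a shift between replicates 1 and 2 counts as spread in them. With that number as a block, limma also called 0, with 77, 67, 254, 227 and 67 genes at unadjusted p under 0.05. Without any true difference, a share of 0.05 of the genes would on average fall under that p. All these counts are lower, so the p-values of these fits run high. The absence of calls therefore does not show that RNA levels were unchanged.

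JUN differed by 0.41 on the log2(RPKM + 1) scale between Tg and DMSO in DD cells and by 0.79 in WT cells, each with an SE of 0.69. The medians of all genes were 0.02 and 0.12, and 98.3% of genes had a lower value than JUN in WT cells and 85.5% in DD cells. Within replicates 1 and 2 the Tg difference of JUN was 0.01 and 0.81 in DD cells and 0.45 and 1.14 in WT cells. DD against WT, JUN differed by -0.66 in Tg and by -0.27 in DMSO, with within-replicate values of -0.66 and -0.65 in Tg and -0.22 and -0.32 in DMSO. JUN was thus lower in DD cells in 4 of 4 pairs of the same number and treatment, while the limma adjusted p was 1.0 in both. FOSL1 and FOSL2, at few reads, were also lower in every such pair, and the share of all genes was not counted. Genes with a lower value than JUN in replicates 1 and 2 were 7.48% and 33.2% in Tg and 23.8% and 15.2% in DMSO. With 1 library left out, the value of JUN for DD against WT ranged in Tg from -1.14 (leaving out replicate 2 of DD or replicate 1 of WT) to -0.17 (leaving out replicate 1 of DD, with -0.18 for replicate 2 of WT) and in DMSO from -0.41 to -0.14 (leaving out replicate 2 of WT), and for Tg in WT cells it was 0.31 without WT Tg replicate 2 and 1.27 without WT Tg replicate 1. The Tg response of JUN in DD cells minus that in WT cells was -0.39 ± 0.98 (SE).

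JUND differed by -0.03 between Tg and DMSO in DD cells (0.25 when rescaled without the mitochondrial rRNA genes) and by 0.77 in WT cells, each with an SE of 0.99. Its within-replicate values were 0.22 and -0.27 in DD cells and 0.45 and 1.08 in WT cells, so the sign was shared by both replicates in WT cells alone. DD against WT, JUND differed by -0.57 in Tg (0.25 and -1.39 within replicates) and by 0.23 in DMSO (0.49 and -0.03). JUNB differed by -0.45 in DD cells and -0.02 in WT cells between Tg and DMSO, with an SE of 0.51, and by -0.46 in Tg and -0.03 in DMSO between DD and WT.

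**Figure D2:**
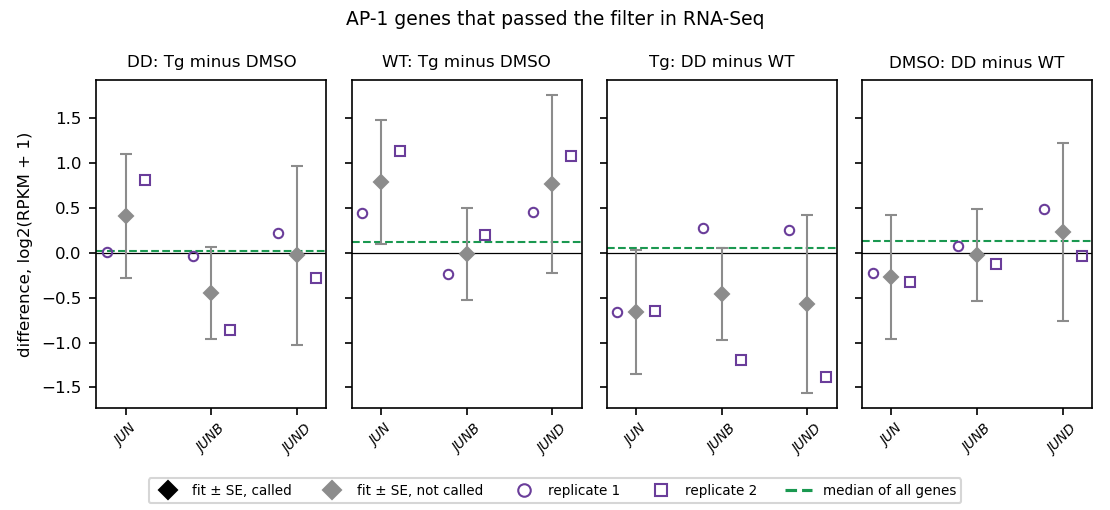
Differences in log2(RPKM + 1) of JUN, JUNB and JUND for Tg minus DMSO in DD and in WT cells and for DD minus WT in Tg and in DMSO; grey diamonds with bars are the fit ± SE, open circles and squares are the differences within replicates 1 and 2, and the green dashed line is the median of all genes. JUN sits at 0.41 and 0.79 for Tg and at -0.66 and -0.27 for DD minus WT, and no diamond is black, the colour of a called difference.

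In eIF3d Subunit-Seq with Tg, JUN and JUND were among the RNAs with the greatest IP over input. JUN had 313.9 and 374.1 RPKM in IP Tg, 40.4 and 15.5 in Input Tg, 174 and 102 in IP DMSO and 49.5 and 3.87 in Input DMSO. The IP values rest on 5370 to 20945 reads and the input values on 200 to 1425. JUN took 0.111% of all reads in IP Tg replicate 1 (95% Wilson interval 0.110 to 0.113) and 0.132% in replicate 2 (0.131 to 0.134), and it ranked at place 108 and 127 of the 58721 genes there. In the inputs of the same cells it ranked at place 877 and 2050. Every IP library of JUN was above every input library. Within a treatment, both IP libraries lay above both inputs for 64.7% of the 9813 tested genes in Tg and 56% in DMSO.

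JUND had 323 and 166 RPKM in IP Tg, 24.9 and 18.2 in Input Tg, 157 and 84.8 in IP DMSO and 42.4 and 8.23 in Input DMSO. Its IP libraries too were all above its input libraries. The share of all genes with this split over both treatments was not counted, so the split does not set JUN and JUND apart. IP over input was 7.77 and 24.2-fold for JUN in Tg and 3.52 and 26.4-fold in DMSO, and 13.0 and 9.13-fold for JUND in Tg and 3.71 and 10.3-fold in DMSO. The high fold of JUN in replicate 2 of DMSO stood on the low input value of 3.87 RPKM in the library that stood apart.

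**Figure D3:**
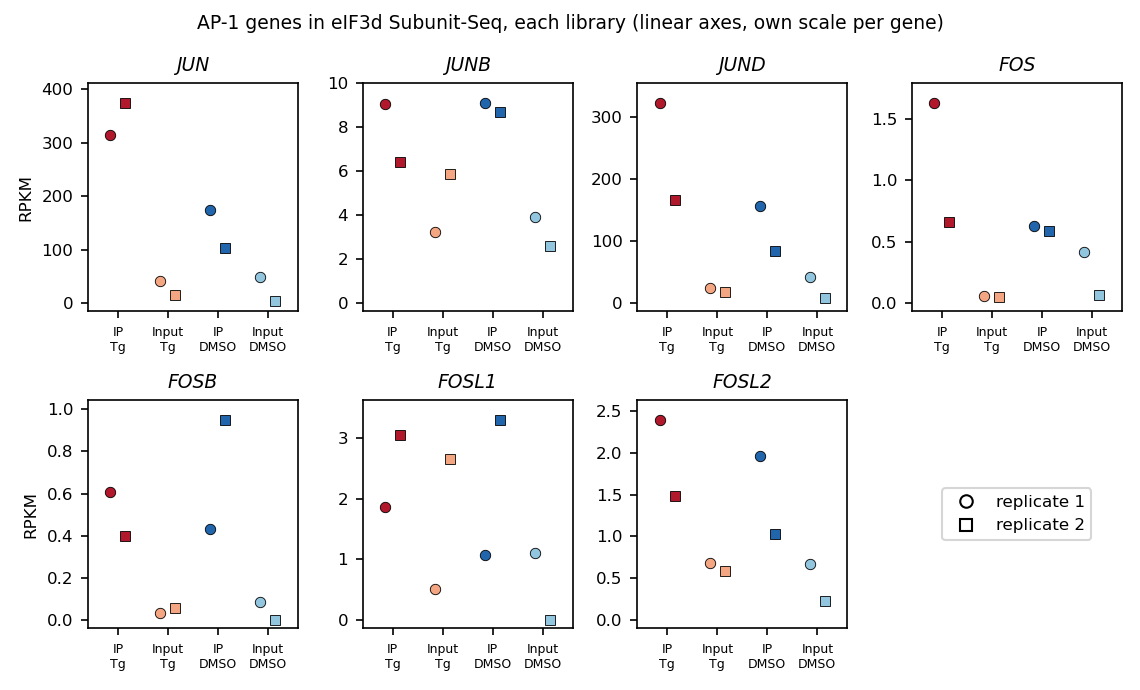
RPKM (linear axes, a scale for each gene) of the 7 AP-1 genes in each Subunit-Seq library, in the order IP Tg, Input Tg, IP DMSO and Input DMSO, with circles for replicate 1 and squares for replicate 2. JUN reaches 313.9 and 374.1 RPKM in IP Tg and JUND 323 and 166, with all inputs of both below 50 RPKM.

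JUN was higher in IP than in input by 3.72 ± 0.64 (SE) on the log2(RPKM + 1) scale in Tg (limma with the replicate number as a block, adjusted p = 9.2e-07) and by 3.10 ± 0.64 in DMSO (adjusted p = 0.00016). JUND was higher by 3.38 ± 0.64 in Tg (limma adjusted p = 1.7e-05) and by 2.54 ± 0.64 in DMSO (adjusted p = 0.0027). Within replicates 1 and 2 the differences were 2.93 and 4.51 for JUN in Tg, 1.79 and 4.41 for JUN in DMSO, 3.64 and 3.12 for JUND in Tg and 1.87 and 3.22 for JUND in DMSO. Of the 4 members that passed the input filter, 2 were thus called higher in each treatment, against 14.6% of the 9813 genes tested in Tg (1432 genes) and 21.4% in DMSO (2100 genes). JUN was number 30 of the 9813 genes by size of difference in Tg and number 57 in DMSO, and JUND number 43 and number 239. The share of genes with a lower difference was 99.7% in Tg and 99.4% in DMSO for JUN and 99.6% and 97.6% for JUND. With a pseudocount of 0.1 it was 99.2% and 96.9% for JUN and 98.8% and 89.0% for JUND. With voom it was 99.2% and 95.0% for JUN and 98.8% and 86.2% for JUND. The IP libraries were higher for most genes, with a median over all genes of 0.87 in Tg and 0.96 in DMSO, and relative to it JUN stood at 2.84 in Tg and 2.14 in DMSO and JUND at 2.51 in Tg and 1.58 in DMSO.

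The calls of JUN and JUND rest on a spread shared over all genes, because limma found no gene-to-gene variation in spread beyond sampling. With each gene's own spread, an alternative chosen after seeing the data, the adjusted p in Tg was 0.281 for JUN and 0.280 for JUND and no gene was called (1724 genes at unadjusted p under 0.05), and the calls were also lost in both treatments without the filter, without the block and with median-ratio scaling, where JUN was at 2.65 and JUND at 2.32 in Tg. That scaling brought the median of all genes in Tg to 0.01 and called 28 genes higher and 36 lower in Tg and 12 higher and 8 lower in DMSO, against 1432 higher and 159 lower in Tg and 2100 higher and 172 lower in DMSO. Mitochondrial rRNA took 0.286% to 0.705% of reads in IP and 4.64% to 20.4% in input libraries, and after rescaling without it JUN was at 3.50 (limma adjusted p = 0.0033) and JUND at 3.16 (adjusted p = 0.0017) in Tg. Without Input DMSO replicate 2 the DMSO difference of JUN was 1.72 (limma adjusted p = 0.345) and that of JUND 1.80 (adjusted p = 0.337), and without IP DMSO replicate 2 it was 2.74 (adjusted p = 0.111) for JUN and 2.38 (adjusted p = 0.239) for JUND. Without IP Tg replicate 2 JUN was at 2.68 in Tg (limma adjusted p = 0.147), while JUND was called in Tg without any 1 library.

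JUNB had 9.06 and 6.43 RPKM in IP Tg, 3.23 and 5.89 in Input Tg, 9.10 and 8.67 in IP DMSO and 3.92 and 2.60 in Input DMSO. Its IP libraries lay above its inputs in each treatment, by 2.80 and 1.09-fold in Tg and 2.32 and 3.34-fold in DMSO. On the log2(RPKM + 1) scale JUNB differed by 0.68 ± 0.63 in Tg (limma adjusted p = 0.426) and by 1.23 in DMSO (adjusted p = 0.124), which did not pass the test, and with median-ratio scaling the Tg value was -0.25. Without Input DMSO replicate 1 the DMSO value was 1.49 (limma adjusted p = 0.0457).

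FOSL1 had 1.85 and 3.05 RPKM in IP Tg, 0.519 and 2.64 in Input Tg, 1.08 and 3.29 in IP DMSO and 1.11 and 0 in Input DMSO. Its IP and input libraries overlapped in both treatments. FOSL1 differed by 0.53 ± 0.59 in Tg (limma adjusted p = 0.507) and by 1.04 in DMSO (adjusted p = 0.162), with -0.15 in Tg under median-ratio scaling and 2.05 in DMSO (adjusted p = 0.0202) without Input DMSO replicate 1.

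FOS, FOSB and FOSL2 had input levels under the filter and were not tested. FOS had 1.63 and 0.664 RPKM in IP Tg, 0.0605 and 0.0514 in Input Tg, 0.629 and 0.583 in IP DMSO and 0.418 and 0.0634 in Input DMSO. The reads behind these were 89, 34, 22 and 28 in the IP libraries and 1, 2, 11 and 3 in the inputs, so the 26.9-fold of replicate 1 in Tg rests on 1 input read. FOSB had 0.609 and 0.399 RPKM in IP Tg, 0.0353 and 0.0599 in Input Tg, 0.433 and 0.947 in IP DMSO and 0.0886 and 0 in Input DMSO. FOSL2 had 2.39 and 1.48 RPKM in IP Tg, 0.685 and 0.592 in Input Tg, 1.96 and 1.03 in IP DMSO and 0.670 and 0.230 in Input DMSO. For these 3 genes both IP libraries lay above both inputs in each treatment, as for JUN, JUND and JUNB. That split was shown by 64.7% of the 9813 tested genes in Tg and 56% in DMSO, so it does not set the members apart.

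**Figure D4:**
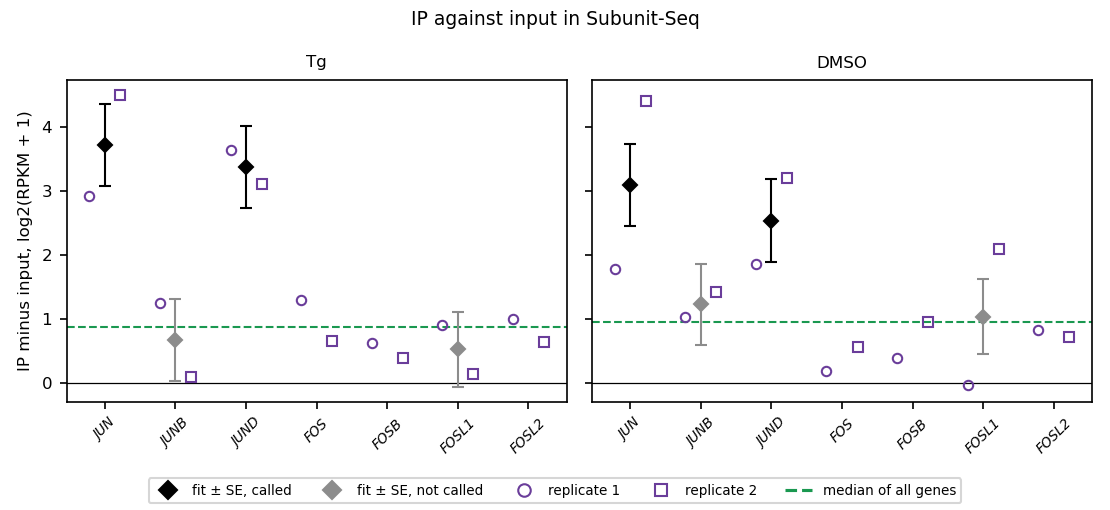
IP minus input in log2(RPKM + 1) for the 7 AP-1 genes in Tg and in DMSO; diamonds with bars are the fit ± SE for the 4 tested genes (black where called), open circles and squares are the differences within replicates 1 and 2, and the green dashed line is the median of all genes. JUN at 3.72 and 3.10 and JUND at 3.38 and 2.54 are the black diamonds, and JUNB at 0.68 and 1.23 lies near the dashed line.

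Over the 4 IP libraries JUN had a median of 244.0 RPKM and JUND one of 162, with JUN above JUND in 3 of 4 libraries and overlapping ranges. JUNB (8.87) lay below both in 4 of 4 libraries, and FOSL1 (2.45), FOSL2 (1.72), FOS (0.646) and FOSB (0.521) followed, with overlap between each of these neighbours. JUN and JUND made up 92.8% to 97.8% of the summed RPKM of the set in IP and 78.5% to 93.7% in input. The ratio of JUN to JUND was 0.972 to 2.25 in IP and 0.470 to 1.62 in input.

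Whether stress changed the RNA bound by eIF3d was asked by setting Tg against DMSO. JUN differed by 1.35 ± 0.64 (SE) between IP Tg and IP DMSO on the log2(RPKM + 1) scale (0.85 and 1.86 within replicates), a value above that of 99.2% of genes, with an unadjusted p of 0.034 and a limma adjusted p of 1.0. Without IP Tg replicate 2 the value of JUN was 0.32, and without IP Tg replicate 1 it was 2.39. JUND differed by 1.00 ± 0.64 (1.03 and 0.96 within replicates), JUNB by -0.19 and FOSL1 by 0.19. None of the 4 passed the test, which called 7 of the 9813 genes (0.0713%). In the inputs JUN differed by 0.74 (-0.29 and 1.76 within replicates) and JUND by 0.16 (-0.74 and 1.06 within replicates, and -0.14 with median-ratio scaling), so their sign depended on the replicate, and none of the 4 was among the 5 genes called (0.051%). The Tg minus DMSO difference of IP over input was 0.62 ± 0.90 for JUN, 0.84 ± 0.91 for JUND, -0.55 for JUNB and -0.51 for FOSL1, none of them among the 6 genes called (0.0611%).

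The genes most like JUN in pattern were found over 8621 genes tested in both assays, as the root mean square difference of log2(RPKM + 1), centred on each gene's mean within each assay, over the 16 libraries. Among the closest were ALKBH5, an RNA m6A demethylase (0.443), TLNRD1, a talin rod domain protein (0.501), FBXO46, an F-box protein (0.523) and EIF4G1, the scaffold of the initiation factor that binds caps (0.549). JUND ranked 17 by this measure (0.604) and JUNB 4314 (1.22, equal to the median of all genes). The libraries share depth and the low input of DMSO replicate 2, and the measure is a description. ALKBH5, the closest, had 103 and 87.9 RPKM in IP Tg, 20.1 and 10.4 in Input Tg, 64.8 and 60.8 in IP DMSO and 26.9 and 1.85 in Input DMSO, against 3.55 to 6.95 in RNA-Seq.

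Genes around AP-1 were counted over 8 lists, in which all members called in IP against input were higher in IP, none was lower, and the background is again 14.6% in Tg and 21.4% in DMSO. Of other basic leucine zipper partners (ATF, BATF and MAF genes), 2 of 6 tested passed in Tg and 3 of 6 in DMSO, with list medians of 1.37 and 1.36 against 0.87 and 0.96 for all genes. MAFG, a small MAF protein, was 3.13 higher in Tg (limma adjusted p = 1.0e-04) and 3.02 in DMSO, and MAF, a large MAF factor, was 1.94 higher in Tg and 1.83 in DMSO. Of 13 tested kinases that signal to JUN and FOS, 1 passed in Tg and 4 in DMSO. MAP2K7, the kinase that activates JNK, was 1.72 higher in Tg and 1.68 in DMSO, and in DMSO the p38 kinase MAPK14 was 1.80 higher. Of the MAPK phosphatases, which turn those kinases off, 3 of 4 passed in both treatments, namely DUSP16 (2.08 in Tg and 1.85 in DMSO), DUSP7 (1.93 and 2.26) and DUSP8 (1.86 and 1.83). In Input DMSO replicates 1 and 2 they had 4.02 and 0.0957 RPKM (DUSP16), 3.68 and 0 (DUSP7) and 2.32 and 0.311 (DUSP8). Their DMSO differences thus rest in part on the low values of replicate 2, the input library that stood apart.

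Among ubiquitin ligases and other regulators of the JUN and FOS proteins, 1 of 7 tested passed in Tg and 2 of 7 in DMSO, with TRIB1, a scaffold of the COP1 ligase, 2.48 higher in Tg and 1.84 in DMSO. Of transcription factors that act on the FOS and JUN promoters, 1 of 8 passed in Tg and 3 of 8 in DMSO. MEF2D was 1.79 higher in Tg and 1.59 in DMSO, and SRF, which drives FOS after serum, was 2.06 higher in DMSO. Of 9 other immediate-early genes, 3 passed in both treatments, namely IER5 (2.87 in Tg and 2.68 in DMSO), IER2 (2.46 and 2.23) and MCL1 (1.89 and 2.48). Of 6 AP-1 target genes, which include FOSL1, VEGFA alone passed, at 2.07 in Tg. Of 8 genes tied to eIF3d cap-dependent translation or the cap complex, 2 passed in Tg and 4 in DMSO, with JUN itself among them in both. Apart from JUN, the list holds genes that encode initiation or cap-binding factors, not a set of known target mRNAs. EIF3A, which encodes the largest eIF3 subunit, passed at 5.01 in Tg (limma adjusted p = 1.9e-11) and 4.88 in DMSO. As for JUN and JUND, no gene was called without the filter or with each gene's own spread. Without the block 36 genes were called in Tg and 24 in DMSO, and with median-ratio scaling 64 and 20, against 1591 and 2272. Which list genes kept their call under those settings is not reported here. The other genes named from these lists as passing in DMSO were also lower in Input DMSO replicate 2 than in replicate 1. MAFG had 3.605 RPKM in replicate 1 and 0.144 in replicate 2, and IER2 4.28 and 0.713. Their DMSO differences thus also rest in part on that library.

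In RNA-Seq none of the tested members of these lists was called (0% of genes in each contrast). The list medians for Tg against DMSO in WT cells ranged from -0.14 for the AP-1 target genes to 0.63 for the MAPK phosphatases, against 0.12 for all genes. ATF3, a stress-induced partner of JUN and the most abundant of its list, had 16.2 and 9.05 RPKM in DD Tg, 19.9 and 11.6 in DD DMSO, 40.1 and 46.4 in WT Tg and 23.4 and 18.0 in WT DMSO. Both WT Tg libraries were above every other library, and both DD Tg libraries were below both WT DMSO libraries. How many of all genes showed these splits was not counted. ATF3 differed by -1.75 between DD and WT in Tg (limma adjusted p = 1.0).

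JUN was listed with m6A sites in every m6A-eCLIP list, and JUND in 1. The lists hold positions and strand without score, coverage or replicate, so a count cannot be set against depth, and the lists differ in length, with 5050 distinct sites in DD Tg, 1796 in DD DMSO, 1572 in WT Tg and 3000 in WT DMSO. JUN held 5 sites in DD Tg, 1 in DD DMSO, 2 in WT Tg and 5 in WT DMSO, all on its own strand, and the counts of 5 stood in the 2 longest lists. Members with a site were 2 of 7 in DD Tg, where 17.3% of 6827 genes had one, and 1 of 7 in DD DMSO (4.56%), WT Tg (4.17%) and WT DMSO (9.52%). The 6827 genes had all passed the RNA-Seq filter, as had only JUN, JUNB and JUND of the members. Of those 3, JUN and JUND had a site in DD Tg and JUN alone in each other list. At least as many sites as JUN were held by 53 genes in DD Tg, 311 in DD DMSO, 43 in WT Tg and 25 in WT DMSO.

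The 1 position of JUN in all 4 lists was chr1:58783142 (GRCh38), base 906 from the RefSeq start. Of 6267 distinct sites outside the mitochondrial genome, 384 were in all 4 lists. The other JUN positions were each in 1 list only. Base 5, in the start sequence printed above, was in WT Tg. Bases 354, 1886, 2060 and 2080 to 2081 were in DD Tg, and bases 1904, 1980, 2027 and 2038 to 2039 were in WT DMSO. Apart from bases 354 and 906, the positions of DD Tg and WT DMSO fell between base 1886 and base 2081, without sharing a base there. JUND held 1 site, chr19:18280365, base 1258, in DD Tg. The gene table used gives spans of genes and not of exons or coding sequence, so UTR and coding positions were not told apart. Sites in at least 2 lists, a stricter rule, left 1 site in JUN and none in JUND.

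**Figure D5:**
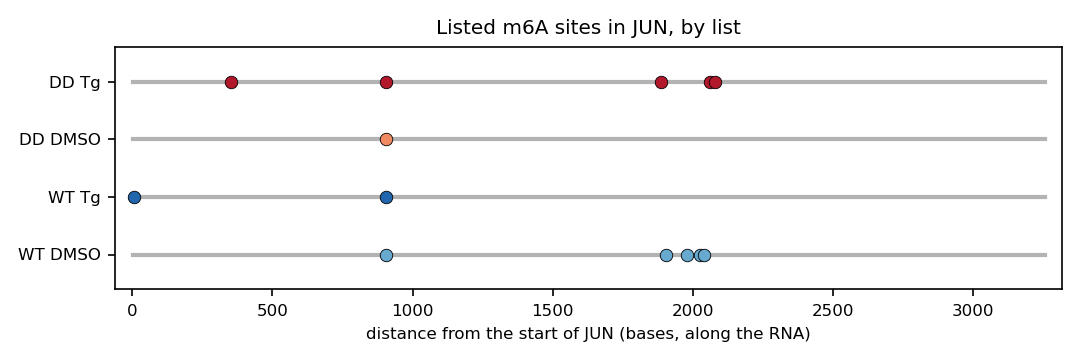
Listed m6A positions along JUN as distance from its start in bases, 1 line per list with DD Tg at the top, followed by DD DMSO, WT Tg and WT DMSO; the grey line is the RefSeq span and each point a site. Base 906 is filled in all 4 lines, and the points beyond base 1886 are in DD Tg and WT DMSO.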

How the data were processed

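The expression tables hold RPKM per gene as deposited by the authors, with Ensembl IDs, of which 58207 of 58721 were matched to symbols. The m6A-eCLIP files are lists of site positions deposited by the authors, with strand and without score. Per the submitters' processing notes, cutadapt, STAR, DESeq2 and BWA and the build GRCh38 were used, with roles and versions not given in the sources used here. Subunit-Seq was deposited as 1 table per replicate.

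Log2(RPKM + 1) was tested with limma 3.58.1 (R 4.3.3, moderated with an intensity trend, two-sided, Benjamini-Hochberg over all genes, threshold 0.05) for genes averaging 1 RPKM or more across the 8 RNA-Seq libraries (9637 genes) or the 4 inputs (9813). RNA-Seq was fitted without a block. Same-numbered RNA-Seq libraries deviated together in every pair (r of 0.134 to 0.864), so the numbers were taken to pair them. The low values were those of pairs with DD Tg (r of 0.134 to 0.299), against 0.743 or more between the other groups. Pairing is thus only weakly shown for DD Tg, also where its differences are given within replicates. The main RNA-Seq fit did not use that pairing, and its SEs include any shift between replicate numbers. Subunit-Seq was fitted with the replicate number as a block, since the tables were deposited separately. Same-numbered libraries there had r of 0.002 (IP DMSO with Input DMSO) to 0.510, so the values do not show pairing for every pair of groups. Means carry n = 2. Reads were recovered from the RPKM steps (26178 of 26179 genes whole within 0.02), used for read counts, 95% Wilson intervals, a floor of 3 reads and voom, and intervals cover counting error only. The fits were also run on simulated reads with known changes. These had no shift between replicate numbers and no general difference between IP and input, unlike the data here. That run therefore does not show how the fits behave on these data. The alternatives were another pseudocount (0.1), no filter, median-ratio scaling, rescaling without the mitochondrial rRNA genes, no intensity trend, voom, the block, and leaving out each library. Named genes were the members, EIF3D, the 5 genes most like JUN and, per list, up to 4 genes that passed or else the 2 most abundant, of which those described are a selection, and some are not reported here. The members and lists were chosen with earlier results of these data known. Sites were assigned by position and strand to RefSeq spans (GRCh38.p14). FOSL1 had no strand matched, so its strand could not be compared, and by position alone no listed site lay in its span.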

Additional observations from a re-analysis of the deposited data

Results flagged for a closer look

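Groups of 2 libraries are too small for a check of single libraries, so the results below are differences between groups of opposite sign. FOS in RNA-Seq was lower with Tg in DD cells (-0.29 and -0.17 on the log2(RPKM + 1) scale within replicates 1 and 2) and higher in WT cells (0.31 and 0.08), a difference of responses of -0.42 from 0 to 12 reads per library, with a limma adjusted p of 1.00 in the fit without the filter on low values. FOSL2 in RNA-Seq was lower with Tg in DD cells (-0.23 and -0.03) and higher in WT cells (0.02 and 0.20), a difference of responses of -0.24 from 7 to 26 reads, with a limma adjusted p of 1.00 in that fit. FOS in Subunit-Seq was higher with Tg in IP (0.69 and 0.07) and lower in input (-0.42 and -0.02), a difference of 0.60, with a limma adjusted p of 1.00 in that fit.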

How the results depend on the processing

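In RNA-Seq every alternative left 0 AP-1 members called, and the replicate block changed no call of a member. When DD Tg replicate 2 was left out of the blocked fit, an alternative chosen after seeing the data, 3 genes were called for DD against WT in DMSO, JUNB turned to 0.11, 0.10 and 0.12 (Tg in DD cells, DD against WT in Tg, interaction) and JUND to 0.50 for Tg in DD cells. Rescaling without mitochondrial rRNA turned JUND to 0.25 there, and voom turned JUNB to 0.055 for DD against WT in DMSO. With each library left out in turn, values ranged as follows. For Tg in DD cells JUN ranged from -0.079 to 0.89 and JUND from -0.66 to 0.60. For Tg in WT cells JUNB ranged from -0.55 to 0.52 and JUND from -0.44 to 1.97. For DD against WT in Tg JUNB ranged from -0.996 to 0.081 and JUND from -1.77 to 0.64, and in DMSO JUNB from -0.34 to 0.29 and JUND from -0.66 to 1.12. For the interaction JUN ranged from -0.87 to 0.10, JUNB from -0.97 to 0.11 and JUND from -2.003 to 0.41.

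In Subunit-Seq, IP against input called 36 genes in Tg and 24 in DMSO without the replicate block, 447 and 1332 with a pseudocount of 0.1, 64 and 20 with median-ratio scaling, 188 and 617 with voom, and 0 and 0 without the filter or with each gene's own spread, against 1591 and 2272. It called 797 in Tg without mitochondrial rRNA. The share of calls that were higher fell to 43.8% in Tg and 60% in DMSO with median-ratio scaling, which set the median of all genes in Tg to 0.01. AP-1 members called were 0 in both treatments without the block, without the filter, with median-ratio scaling and with own spread, against 2. Median-ratio scaling turned JUNB to -0.25 and FOSL1 to -0.15 in Tg and JUND to -0.14 between inputs. The 6, 5 and 7 genes called for the difference of differences, between inputs and between IPs became 4, 5 and 7 without the intensity trend, and 0 under each other alternative that kept all libraries except 1 between IPs with a pseudocount of 0.1. With 1 library left out, genes called ranged from 114 to 300 in Tg, 0 to 5073 in DMSO, 0 to 19 for the difference, 0 to 33 between inputs and 2 to 24 between IPs, and members called from 1 to 2 in Tg and 0 to 4 in DMSO. FOSL1 was 3.93 for IP against input in DMSO, -3.10 for the difference and 3.42 between inputs with voom (against 1.04, -0.51 and 0.70), and 2.52, -1.59 and 1.91 with a pseudocount of 0.1. With 1 library left out FOSL1 ranged from -0.021 to 1.08 in Tg, -1.52 to 0.50 for the difference, -0.31 to 1.70 between inputs and -0.22 to 0.59 between IPs. JUN ranged from -0.76 to 2.00 for the difference and -0.65 to 2.12 between inputs, JUND from -0.58 to 0.89 and JUNB from -0.15 to 0.87 between inputs, and JUNB from -0.44 to 0.057 between IPs. Sites in at least 2 lists left 1 AP-1 site in DD Tg (against 6), 1 in WT Tg (2) and 1 in WT DMSO (5). The cause of each change was not tested. Depth limits FOS, FOSB, FOSL1 and FOSL2, whose RNA-Seq values rest on at most 26 reads.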
